A study of Mus musculus with 18 samples.

Results

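Lysosomal genes were examined in macrophages as a set of 37 named genes: acid hydrolases, proteins of the lysosomal membrane, subunits of the vacuolar proton pump, lipid transfer and activator proteins, and the transcription factors Tfeb and Tfe3. Probe sets with a single gene symbol were taken, and the one with the highest mean over all arrays stood for a gene. Of the 37, 35 had such a probe set, out of 17097 genes measured. Cd63 and Neu1 had none under a single symbol in the probe annotation used and were not analysed here. The 35 were 20 hydrolases (11 proteases, 7 glycosidases and 2 lipid hydrolases), 6 membrane proteins, 5 proton pump subunits, 2 transfer or activator proteins and 2 transcription factors. All 35 were bright enough to be read: 33 exceeded the level of nonspecific control probes in all 18 arrays, and Atp6v0d2 and Ctsk missed it in 1 array each.

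The cells were bone marrow-derived macrophages of male FVB/NJ mice aged 10 to 14 weeks, knockout (KO) or wild type (WT) for Klf3, which encodes a DNA-binding zinc finger protein of the Krüppel-like family. Marrow was grown for 7 to 10 days with medium conditioned by L929 cells, a fibroblast line that secretes M-CSF, the growth factor of macrophages. That medium was washed away from all cells and regular medium added. The 6 groups, with 3 arrays each, were KO and WT cells after 8 h with 100 ng/mL lipopolysaccharide (LPS, a bacterial cell wall component sensed by Toll-like receptor 4), KO and WT cells after 8 h with vehicle (PBS), and KO and WT cells harvested at 0 h. The labels name neither the knockout allele nor separate animals or cultures behind the arrays of a group, so the p-values speak for the spread among these samples alone, which may be technical.

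Lysosomes break down what macrophages take up and what autophagy delivers. Hydrolases are tagged in the Golgi apparatus, carried to the lysosome and activated by its low pH, which the vacuolar ATPase (V-ATPase) maintains by pumping protons across the membrane. Tfeb and Tfe3 are basic helix-loop-helix factors that enter the nucleus when the kinase mTORC1 is inactive and bind E-box motifs (CACGTG) upstream of many lysosomal genes, a relation worked out mostly in human and mouse cells. Activity of both factors is set largely by phosphorylation, which an array of RNA does not measure.

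Promoter sequences are shown because Tfeb and Tfe3 bind E-boxes and part of these genes hold one near their start. RefSeq promoter windows (build GRCm38.p6, 250 bases before to 50 after an annotated start) were at hand for 29 of the 35 genes. At least 1 CACGTG, which reads the same on both strands, lay in the windows of 12 of the 29 (41.4%), against 10.21% of 13605 genes on the array with a window and 7.15% of all 32851 windows. The longer TCACGTG or its reverse complement, which contains the shorter motif, occurred in 11 of 29 (37.9%) against 5.78% of the genes on the array. TCACGTGA occurred in 6 of 29 (20.7%) against 1.67%. The longest motif scanned, which adds a G before and a C after TCACGTGA, occurred in 0 of 29 (0.0%) against 0.57%. That motif is too rare on the array for its absence from 29 genes to be read either way. A match describes the letters in the window and is not evidence of binding. Stretches of 30 bases are given for genes of the main roles whose values are described further on, 5′ to 3′ on the strand of the gene with the E-box in capitals.
Atp6v1a, V-ATPase subunit, chr16:44139373-44139402, minus strand: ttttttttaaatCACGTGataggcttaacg
Atp6v0d1, V-ATPase subunit, chr8:105566050-105566079, minus strand: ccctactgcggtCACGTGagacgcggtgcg
Mcoln1, calcium channel of the membrane, chr8:3500462-3500491, plus strand: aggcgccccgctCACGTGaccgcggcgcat
Lgmn, asparaginyl protease, at 1 of its annotated starts, chr12:102439124-102439153, minus strand: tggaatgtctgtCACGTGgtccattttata
Ctsd, aspartic protease, chr7:142387908-142387937, minus strand: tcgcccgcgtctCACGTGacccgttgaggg
Gla, alpha-galactosidase, chrX:134601182-134601211, minus strand: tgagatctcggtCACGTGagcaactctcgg
Naglu, heparan sulfate glycosidase, chr11:101070009-101070038, plus strand: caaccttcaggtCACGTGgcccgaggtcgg
The promoter of Lamp1, the major glycoprotein of the lysosomal membrane, held 4 E-boxes in the 75 bases before its start (chr8:13159086-13159160, plus strand), more than could be shown in a 30-base stretch.
Lamp1: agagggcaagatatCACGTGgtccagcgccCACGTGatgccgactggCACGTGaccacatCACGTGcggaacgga

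Several facts of the whole series bear on these genes. The brightest Klf3 probe set, 1454666_PM_at, averaged 6.84 to 7.36 on the log2 scale in the 3 KO groups, against 8.54 to 9.12 in WT groups, and KO minus WT was -2.28 after LPS (limma, adjusted p = 0.000188), -1.92 after vehicle (0.053) and -1.18 at 0 h (0.185). The probe set 1421604_PM_a_at averaged 3.01 to 3.71 in KO groups, against 7.47 to 7.78 in WT groups. A further one, 1431630_PM_a_at, was higher in KO cells (8.50 after vehicle and 8.96 at 0 h) than in WT cells (7.20 and 7.45), and which part of the gene each probe set covers was not determined here. All 9 macrophage markers exceeded the nonspecific level in every array, the dendritic cell, mast cell and fibroblast markers were at or under it in every array, and at most 1 T and NK cell, B cell or erythroid marker exceeded it in any array. Macrophage markers moved both ways with LPS. Csf1r changed by -0.95 in KO and -0.61 in WT cells on the log2 scale, while Cd14 rose by 1.05 and 0.80. Fcgr1 rose by 1.89 and 2.95, and Mertk averaged 9.08 and 9.02 after LPS against 10.1 and 10.02 after vehicle. Osteoclast markers, which matter here because osteoclasts are rich in V-ATPase and cathepsin K, summed to 1368 to 1675 units in KO and 915.5 to 1512 units in WT cells after LPS, against 519.5 to 641 units in KO and 497 to 577.4 units in WT cells after vehicle. Acp5, Mmp9 and Car2 rose and Nfatc1 fell with LPS in both genotypes, while Ocstamp and Oscar were at or under the nonspecific level in all 18 arrays and Calcr exceeded it in 1. Itgb3 exceeded that level only in WT cells at 0 h, where it averaged 5.13. It averaged 3.27 in KO cells at 0 h and 3.08 in WT cells after vehicle. Neutrophil markers summed to 552.4 to 727 units in KO and 577 to 922.6 units in WT cells after LPS, against 478.2 to 545.8 units in KO and 307.2 to 415 units in WT cells after vehicle, with Elane, Mpo, Ctsg, Ltf and S100a9 at or under the level in every array. Members of that list moved both ways with LPS: Camp rose by 4.75 in KO and 4.22 in WT cells, S100a8 rose by 2.45 and 3.70, and Mmp8 changed by -2.11 and -2.17 on the log2 scale. The part of these markers in the results was not tested. The log2 signal of the 5′ minus the 3′ control probe set of Gapdh, a sign of RNA integrity and labelling, was -0.469 ± 0.082 in KO and -0.436 ± 0.344 in WT cells after LPS, -0.212 ± 0.093 and -0.178 ± 0.098 after vehicle, and 0.092 ± 0.073 and 0.116 ± 0.017 at 0 h (SD, n = 3 each). It moved with treatment, and its part in the results was not tested. Each treatment also filled its own pair of plate rows, so plate row and treatment cannot be told apart.

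With quantile-normalised arrays, the RNA of most lysosomal genes was lower after LPS than after vehicle in both genotypes. In KO cells 29 of 35 fell, 2 rose and 4 did not pass the threshold (limma, adjusted p under 0.05), with a median log2 difference between LPS and vehicle of -0.74. In WT cells 27 fell, 3 rose and 5 did not pass, with a median of -0.58. Across all genes tested, LPS changed 34.5% in KO cells (20.6% lower and 13.9% higher, median -0.03) and 32.3% in WT cells (18.6% lower and 13.7% higher, median -0.01). Most lysosomal genes are bright, and among 10335 genes above the nonspecific level in at least 3 arrays the shares lower were 32.5% in KO and 29.8% in WT cells. The same 27 genes fell in both genotypes. LPS and vehicle arrays did not overlap for 34 of the 35 genes in KO and 32 in WT cells, where 45.5% and 41% of all genes did not. Ctsb and Ctsl passed as lower in KO cells only, Ctsc and Atp6v1h rose in both, Tfe3 passed as higher in WT cells only, and Ctsk, Ctsz and Npc2 passed in neither. Under 3 other scalings of the arrays, 14 to 18 of the 35 genes were lower in KO cells and 19 to 28 in WT cells. In a culture, fewer cells of a type and less RNA per cell cannot be told apart.

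**Figure D1:**
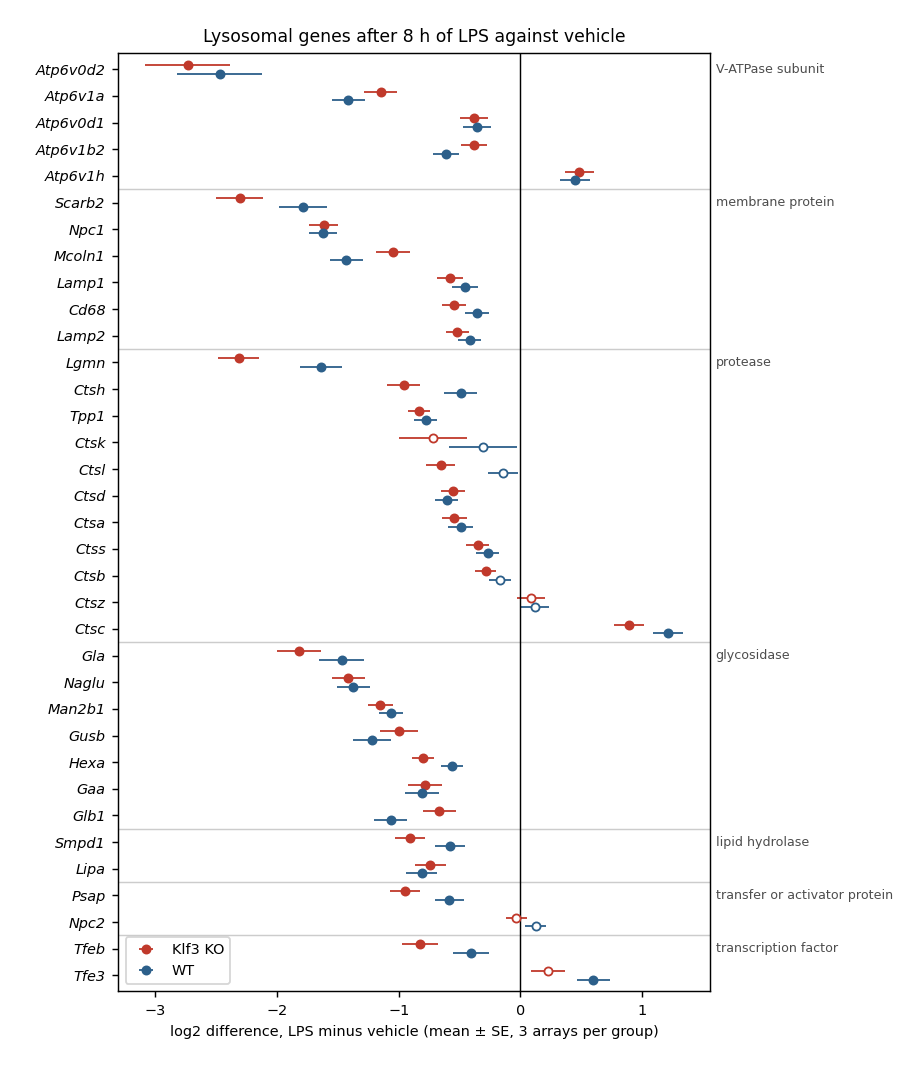
Log2 difference between LPS and vehicle for each of the 35 lysosomal genes, grouped by role, in Klf3 KO (red) and WT (blue) macrophages; points are fitted means, bars standard errors with 3 arrays per group, and open points did not pass an adjusted p of 0.05. Most points lie left of 0 in both genotypes, and the filled points right of it are those of Atp6v1h and Ctsc in both and of Tfe3 in WT cells.

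By role, 17 of 20 hydrolases fell in KO and 15 in WT cells (median log2 difference -0.76 and -0.60), 6 of 6 membrane proteins in each (-0.81 and -0.94), and 4 of 5 V-ATPase subunits in each (-0.38 and -0.61). The difference between roles was not tested, because genes of a role are not replicates.

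Atp6v0d2, the d2 isoform of the membrane-embedded pump sector that is abundant in osteoclasts and some macrophages, had log2 intensities of 5.33, 4.80 and 3.97 in KO cells after LPS, against 7.49, 7.97 and 6.85 after vehicle. In WT cells it had 5.40, 5.01 and 5.38 after LPS, against 7.50, 8.22 and 7.47 after vehicle. All LPS arrays lay below all vehicle arrays, and the log2 difference was -2.73 ± 0.35 in KO (SE, adjusted p = 1.03e-05) and -2.47 ± 0.35 in WT cells. Of its KO arrays after LPS 1 was not above the nonspecific level, and the size moved with the processing, between -3.50 and -1.81 in KO and between -3.09 and -1.80 in WT cells over 16 alternatives, past the threshold in each. Its widely expressed isoform Atp6v0d1 moved far less: 10.57, 10.54 and 10.38 in KO cells after LPS against 10.90, 10.82 and 10.91 after vehicle, and 10.39, 10.68 and 10.41 in WT cells after LPS against 10.88, 10.88 and 10.79 after vehicle. The log2 difference of Atp6v0d1 was -0.38 ± 0.11 in KO and -0.36 ± 0.11 in WT cells, and in KO cells the sign turned (0.08) when arrays were shifted to equal medians instead of quantile-normalised.

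Atp6v1a, the catalytic A subunit of the cytosolic sector that hydrolyses ATP, had 10.32, 10.55 and 10.66 in KO cells after LPS against 11.67, 11.66 and 11.64 after vehicle. In WT cells it had 10.55, 10.30 and 10.00 after LPS against 11.69, 11.65 and 11.74 after vehicle, and the groups did not overlap in either genotype. The log2 difference was -1.15 ± 0.13 in KO and -1.41 ± 0.13 in WT cells (SE). Its partner Atp6v1b2, the B subunit that shares the nucleotide-binding sites, had 10.23, 10.39 and 10.16 in KO cells after LPS against 10.71, 10.71 and 10.49 after vehicle, and 10.36, 10.11 and 10.18 in WT cells after LPS against 10.80, 10.86 and 10.83 after vehicle. Its log2 difference was -0.38 ± 0.11 in KO cells, of the opposite sign (0.04) with equal medians, and -0.61 ± 0.11 in WT cells. Atp6v1h, the H subunit that regulates coupling of the pump's sectors, went the other way: 9.89, 10.07 and 10.02 in KO cells after LPS against 9.33, 9.50 and 9.70 after vehicle, and 9.78, 10.01 and 9.90 in WT cells after LPS against 9.49, 9.37 and 9.50 after vehicle. It rose by 0.48 ± 0.12 in KO (adjusted p = 0.00468) and 0.45 ± 0.12 in WT cells (0.00869), and in WT cells the difference was 0.04 on the deposited values without scaling. Its call was lost in KO cells without KO replicate 2 (adjusted p = 0.0674) and in WT cells without WT replicate 2 (0.0902).

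Among membrane proteins, Scarb2 and Npc1 gave the largest falls on their brightest probe sets. Scarb2 (LIMP-2), which carries glucocerebrosidase to the lysosome, had 8.75, 8.47 and 8.95 in KO cells after LPS against 11.09, 11.02 and 10.98 after vehicle. In WT cells it had 9.66, 9.11 and 8.65 after LPS against 10.96, 10.79 and 11.03 after vehicle. The groups were more than 1 log2 unit apart in both genotypes, a 4.95-fold lower level in KO and a 3.45-fold lower level in WT cells. The second Scarb2 probe set, also above the nonspecific level in all 18 arrays, gave a smaller log2 difference of -1.03 in KO and -0.95 in WT cells, past the threshold in both. Npc1, which moves cholesterol out of the lysosome, had 7.60, 7.78 and 7.71 in KO cells after LPS against 9.40, 9.42 and 9.12 after vehicle, and 7.72, 7.56 and 7.47 in WT cells after LPS against 9.12, 9.15 and 9.35 after vehicle. The log2 difference was -1.62 ± 0.12 in both genotypes. Mcoln1, a channel that releases lysosomal calcium, fell by 1.05 ± 0.14 in KO and 1.43 ± 0.14 in WT cells. The structural proteins Lamp1 and Lamp2 and the macrophage sialomucin Cd68 fell least, by 0.52 to 0.58 in KO and 0.36 to 0.45 in WT cells. Their KO calls were lost under each of the 3 other scalings, and their WT calls were lost with equal medians.

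Of the 11 proteases, 8 fell and 1 rose in KO cells, and 6 fell and 1 rose in WT cells. Lgmn, legumain, which cuts after asparagine and processes several cathepsins, had 9.29, 9.07 and 9.12 in KO cells after LPS against 11.75, 11.63 and 11.05 after vehicle. In WT cells it had 10.31, 9.96 and 9.74 after LPS against 11.77, 11.52 and 11.62 after vehicle. No arrays overlapped, and Lgmn was 4.98-fold lower in KO (log2 difference -2.32 ± 0.17 SE, adjusted p = 2.09e-08) and 3.11-fold lower in WT cells (-1.64 ± 0.17 SE). Ctsh, an aminopeptidase, had 8.10, 8.33 and 8.43 in KO cells after LPS against 9.48, 9.30 and 8.95 after vehicle, and 8.91, 8.99 and 8.80 in WT cells after LPS against 9.47, 9.37 and 9.34 after vehicle. Ctsc, cathepsin C, which activates serine proteases of granules, was the only hydrolase of the 20 that rose: 11.90, 11.66 and 11.81 in KO cells after LPS against 10.87, 10.70 and 11.12 after vehicle, and 12.31, 12.30 and 12.06 in WT cells after LPS against 11.04, 10.99 and 11.00 after vehicle. All its LPS arrays lay above all vehicle arrays, 1.86-fold higher in KO (0.89 ± 0.12 SE, adjusted p = 1.94e-05) and 2.32-fold higher in WT cells (1.21 ± 0.12 SE).

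The other proteases gave smaller values. The endopeptidases Ctsd and Ctss, the carboxypeptidase Ctsa and the tripeptidyl peptidase Tpp1 fell by 0.35 to 0.83 in KO and 0.27 to 0.78 in WT cells. In KO cells the calls of Ctsd and Ctsa were lost under each of the 3 other scalings. The fall of Ctss was lost in 5 of 16 alternatives in KO and in 9 in WT cells, and a second probe set of Tpp1 gave larger differences, -1.63 in KO and -2.07 in WT cells. Ctsb, cathepsin B, had a log2 difference of -0.29 ± 0.09 in KO and -0.17 ± 0.09 in WT cells on its brightest probe set, which did not pass in WT cells. Ctsl, cathepsin L, had 11.13, 11.06 and 11.12 in KO cells after LPS against 11.84, 11.81 and 11.63 after vehicle, and 11.86, 11.46 and 11.65 in WT cells after LPS against 11.85, 11.80 and 11.76 after vehicle. Its groups did not overlap in KO cells (-0.66 ± 0.12, adjusted p = 0.000402) and did in WT cells (-0.15 ± 0.12, 0.424). The KO call of Ctsl was also lost under each of the 3 other scalings. Ctsk, the collagen-cutting cathepsin of osteoclasts, gave -0.72 ± 0.28 in KO (adjusted p = 0.0553) and -0.31 ± 0.28 in WT cells, and the carboxypeptidase Ctsz gave 0.09 and 0.12, none of them past the threshold.

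All 7 glycosidases, which strip sugars from glycolipids, glycoproteins and glycogen, fell in both genotypes. Gla, the alpha-galactosidase lacking in Fabry disease, had 7.93, 8.17 and 8.11 in KO cells after LPS against 10.01, 9.80 and 9.86 after vehicle, and 9.21, 8.33 and 8.58 in WT cells after LPS against 10.30, 9.96 and 10.26 after vehicle. Naglu, which acts on heparan sulfate, had 7.94, 8.02 and 8.15 in KO cells after LPS against 9.36, 9.43 and 9.56 after vehicle, and 8.43, 8.05 and 8.36 in WT cells after LPS against 9.82, 9.66 and 9.47 after vehicle. Neither gene overlapped between treatments, and the log2 differences in KO and WT cells were -1.82 and -1.47 for Gla and -1.41 and -1.37 for Naglu. The other 5 (Gaa, Glb1, Gusb, Hexa, Man2b1) fell by 0.67 to 1.15 in KO and 0.56 to 1.22 in WT cells. In KO cells the call of Glb1 was lost under each of the 3 other scalings. Those of Gusb and Hexa were lost there when arrays were shifted to equal medians or to equal hybridisation controls. The call of Hexa in WT cells was lost with equal medians.

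Both lipid hydrolases fell. Smpd1, acid sphingomyelinase, had 7.58, 7.38 and 7.47 in KO cells after LPS against 8.30, 8.45 and 8.40 after vehicle, and 7.92, 7.44 and 7.57 in WT cells after LPS against 8.34, 8.22 and 8.11 after vehicle. Lipa, which frees cholesterol from its esters, had 10.65, 11.05 and 10.93 in KO cells after LPS against 11.53, 11.57 and 11.74 after vehicle, and 10.93, 10.79 and 10.94 in WT cells after LPS against 11.71, 11.67 and 11.71 after vehicle. Groups were apart for both genes, with log2 differences in KO and WT cells of -0.90 and -0.58 for Smpd1 and -0.74 and -0.81 for Lipa. The KO call of Lipa was lost under each of the 3 other scalings. Psap, the precursor of the saposins that present sphingolipids to hydrolases, had 11.69, 11.98 and 11.76 in KO cells after LPS against 12.82, 12.83 and 12.64 after vehicle, and 12.39, 12.25 and 12.08 in WT cells after LPS against 12.83, 12.81 and 12.83 after vehicle, with differences of -0.95 ± 0.12 and -0.59 ± 0.12. Npc2, which hands cholesterol to Npc1, gave -0.03 ± 0.09 in KO and 0.13 ± 0.09 in WT cells and passed in neither on its brightest probe set.

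The transcription factors moved in different directions. Tfeb had 6.91, 6.73 and 6.35 in KO cells after LPS against 7.46, 7.64 and 7.38 after vehicle, and 7.01, 6.82 and 6.99 in WT cells after LPS against 7.22, 7.55 and 7.26 after vehicle. LPS arrays lay below vehicle arrays in each genotype, with differences of -0.83 ± 0.15 in KO (adjusted p = 0.000301) and -0.41 ± 0.15 in WT cells (0.0463). The WT value was close to the threshold and no longer passed in 9 of 16 alternatives: without WT replicate 1, 2 or 3 (adjusted p = 0.0631, 0.396 and 0.0917), without KO replicate 1 or 2 (0.0528 and 0.0743), with a replicate block (0.0742) or plate column as a block (0.0629), with an intensity trend and array weights (0.06), and with the compared groups alone (0.0895). Tfe3 had 9.99, 9.87 and 9.79 in KO cells after LPS against 9.70, 9.77 and 9.50 after vehicle, and 9.97, 10.39 and 10.49 in WT cells after LPS against 9.64, 9.69 and 9.72 after vehicle. Tfe3 gave 0.23 ± 0.14 in KO cells (adjusted p = 0.24) and rose by 0.60 ± 0.14 in WT cells (0.00265), and the difference between these responses (-0.37 ± 0.20) did not pass (0.474). In WT cells the Tfe3 call was lost on the deposited values (adjusted p = 0.303) and with equal hybridisation controls (0.52).

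**Figure D2:**
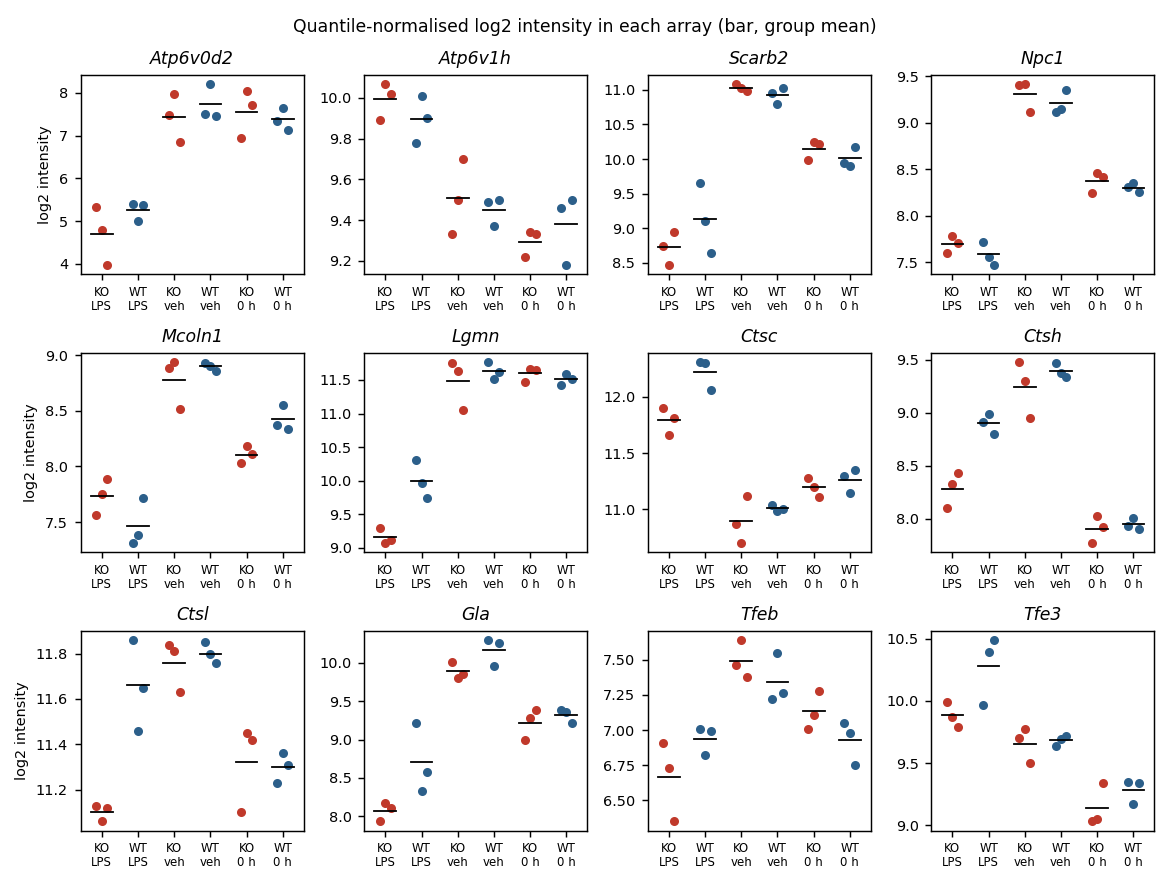
Log2 intensity of 12 lysosomal genes in each of the 18 arrays, quantile-normalised, with KO (red) and WT (blue) after LPS, after vehicle and at 0 h from left to right; bars are group means and each panel has its own axis. Atp6v0d2 and Lgmn are low only in the LPS groups, Scarb2, Npc1, Mcoln1 and Gla are highest after vehicle, and Ctsc and Atp6v1h are highest after LPS.

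The arrays were deposited on differing scales, and the choice of scaling decided how many genes passed. In KO cells 29 falls became 16 with arrays shifted to equal medians, 18 on the deposited values and 14 with equal hybridisation controls, where the median over all genes was 0.09, -0.03 and 0.00. For WT cells the falls numbered 19, 28 and 23, and the median over all genes was -0.05, -0.44 and -0.43. The median of the lysosomal genes was below that of all genes under each of the 4 scalings. In both genotypes 13 genes passed as lower under all of them: Atp6v0d2, Atp6v1a, Ctsh, Gaa, Gla, Lgmn, Man2b1, Mcoln1, Naglu, Npc1, Scarb2, Smpd1 and Tfeb. Ctsc passed as higher under all 4 scalings in both genotypes. Over all 16 alternatives, 11 of the 13 falls held in both genotypes. In WT cells the fall of Ctsh was lost without WT replicate 1 or 3, and that of Tfeb in 9 alternatives.

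**Figure D3:**
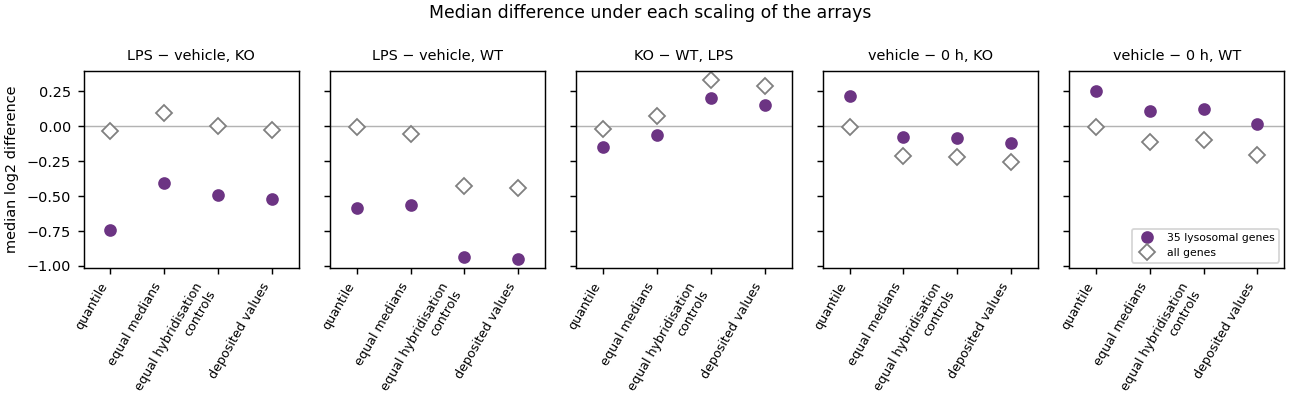
Median log2 difference of the 35 lysosomal genes (purple circles) and of all 17097 genes (open diamonds) in 5 comparisons under 4 ways of bringing the arrays to a common scale. The lysosomal median lies below that of all genes for LPS against vehicle and for KO against WT after LPS, and above it for vehicle against 0 h, while its side of 0 depends on the scaling for KO against WT after LPS and for vehicle against 0 h in KO cells.

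The lysosomal response to LPS was not shown to differ between Klf3 KO and WT cells. No gene of the 35 passed for the difference between the KO and WT responses (limma, smallest adjusted p = 0.205), where 1.12% of all genes did, and 4 had an unadjusted p under 0.05 against 12.1% of all genes. With an intensity trend and array weights in limma, 1 passed. The fitted differences ran from -0.68 for Lgmn to 0.40 for Glb1, with a median standard error of 0.17. Smaller differences could not be resolved with 3 arrays per group.

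After LPS, 5 genes were lower in KO than in WT cells and none was higher, against 3.15% of all genes lower, 2.81% higher and 5.96% changed in either direction. Among genes above the nonspecific level in at least 3 arrays, 4.95% were lower, 4.43% higher and 9.39% changed. The 5 lysosomal genes were 4 cysteine proteases, Lgmn, Ctsh, Ctsl and Ctsc, and the saposin precursor Psap. Arrays of the 2 genotypes did not overlap for 11 of the 35, all 5 included, where 18.5% of all genes did not: for Lgmn, 9.29, 9.07 and 9.12 in KO cells stood against 10.31, 9.96 and 9.74 in WT cells, and for Ctsl, 11.13, 11.06 and 11.12 stood against 11.86, 11.46 and 11.65. The log2 differences, KO minus WT, were -0.84 ± 0.17 for Lgmn (adjusted p = 0.00725), -0.62 ± 0.13 for Ctsh (0.011), -0.55 ± 0.12 for Ctsl (0.0121), -0.44 ± 0.12 for Ctsc (0.0442) and -0.43 ± 0.12 for Psap (0.0483). Gla missed the threshold (-0.64 ± 0.18, adjusted p = 0.0515). Of these genes Ctsc was the only one that LPS raised, and the fitted difference between its responses was -0.32 ± 0.17, not past the threshold. Markers of cell types also passed in this comparison: Mmp9 (-2.17, adjusted p = 0.011), Fcgr1 (-1.29), S100a8 (-1.28), Calcr (-0.97) and Itgam (-0.82) were lower and Mmp8 (0.69) was higher in KO cells. WT replicate 1 after LPS, the highest of its group for Lgmn and Ctsl, had a Gapdh 5′ minus 3′ value of -0.066, against -0.497 and -0.746 in the other WT arrays after LPS. The part of these in the 5 calls was not tested.

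These 5 calls depended on the scaling. The median over all genes for KO against WT after LPS was -0.02 with quantile normalisation, 0.07 with equal medians, 0.29 on the deposited values and 0.34 with equal hybridisation controls, and with each of the last 3 none of the 5 passed. All 5 kept a negative sign, with Lgmn at -0.79, -0.58 and -0.53 (adjusted p = 0.0814, 0.176 and 0.344). None passed without KO replicate 2, or when only the 2 LPS groups were fitted, and 3 passed without KO replicate 1 or 3 or without WT replicate 1 or 2. The other 2 probe sets of Ctsc were also lower in KO cells, at -1.20 and -1.49, past the threshold over all probe sets. The second probe set of Psap gave -0.36, not past it, and that of Ctsl was above the nonspecific level in 2 of 18 arrays only.

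Without LPS no difference between the genotypes was resolved. No lysosomal gene passed for KO against WT after vehicle, where 0% of all genes did, or at 0 h, where 0.14% did, 0.111% higher and 0.0292% lower (limma). Unadjusted p was under 0.05 for 1 gene after vehicle (Glb1, -0.46 ± 0.13) and for 3 at 0 h, against 4.54% and 6.19% of all genes. With an intensity trend and array weights 1 gene passed after vehicle and none at 0 h. Arrays did not overlap for 5 genes after vehicle and 7 at 0 h, where 12% and 14.6% of all genes did not. Lgmn gave -0.16 ± 0.17 after vehicle and 0.08 ± 0.17 at 0 h, and Ctsl -0.04 ± 0.12 and 0.02 ± 0.12. The largest difference at 0 h was that of Ctsk, at 4.63, 4.89 and 4.81 in KO against 4.54, 4.24 and 3.42 in WT cells (0.71 ± 0.28, adjusted p = 0.674).

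**Figure D4:**
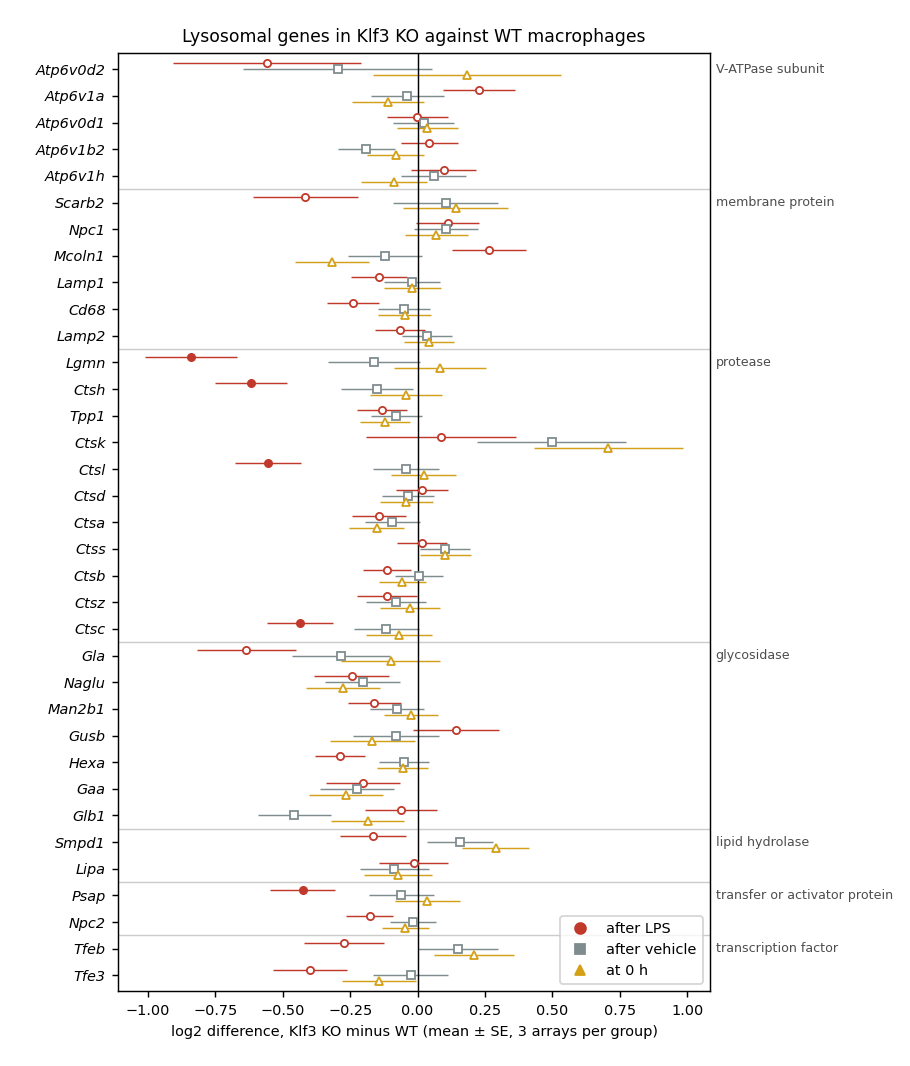
Log2 difference between Klf3 KO and WT macrophages for each lysosomal gene after LPS (red circles), after vehicle (grey squares) and at 0 h (yellow triangles), with standard errors from 3 arrays per group; filled symbols passed an adjusted p of 0.05. Only Lgmn, Ctsh, Ctsl, Ctsc and Psap after LPS are filled, all left of 0.

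In the 8 h in regular medium without LPS, part of the lysosomal genes rose. In KO cells 11 of 35 were higher after vehicle than at 0 h and none was lower, against 6.78% of all genes higher, 5.8% lower and 12.6% changed. In WT cells 11 were higher and none lower, against 7.17% higher, 7.01% lower and 14.2% changed. Among genes above the nonspecific level in at least 3 arrays, 10.9% were higher and 9.1% lower in KO cells. In WT cells these shares were 11.6% and 11.1%. Neutrophil markers summed higher too, to 478.2 to 545.8 units in KO cells after vehicle against 254.1 to 366 units at 0 h, and to 307.2 to 415 units in WT cells after vehicle against 157.1 to 168 units at 0 h, with Mmp8 higher by 0.95 in KO and 1.63 in WT cells and S100a8 above the nonspecific level after vehicle and not at 0 h. Mmp8 was the brightest of that list after vehicle, at 8.67 in KO and 8.04 in WT cells. The list's other members except S100a8 averaged at most 3.69 there. Of the macrophage markers, Csf1r rose by 0.81 in KO and 0.77 in WT cells. Mertk averaged 10.1 and 10.02 after vehicle against 8.71 and 8.73 at 0 h. Fcgr1 averaged lower after vehicle (8.58 and 8.81 against 9.31 and 9.72), as did Itgam (10.53 and 10.61 against 11.1 and 10.98). The part of these markers in the rise was not tested. Of the lysosomal genes that rose, 10 passed in both genotypes: Ctsh, Ctsk, Ctsl, Ctss, Gaa, Gla, Man2b1, Mcoln1, Npc1 and Scarb2, while Tfe3 passed in KO and Atp6v1b2 in WT cells. Vehicle and 0 h arrays did not overlap for 23 genes in KO and 24 in WT cells, where 33.6% and 36.3% of all genes did not. Ctsk had 6.24, 6.14 and 6.12 in KO cells after vehicle against 4.63, 4.89 and 4.81 at 0 h, and 5.82, 5.85 and 5.33 in WT cells after vehicle against 4.54, 4.24 and 3.42 at 0 h. Ctsh had 9.48, 9.30 and 8.95 in KO cells after vehicle against 7.77, 8.03 and 7.92 at 0 h, and 9.47, 9.37 and 9.34 in WT cells after vehicle against 7.93, 8.01 and 7.90 at 0 h. Both cathepsins were clear of the 0 h arrays, with differences in Ctsk and Ctsh of 1.39 ± 0.28 and 1.34 ± 0.13 in KO and 1.60 ± 0.28 and 1.45 ± 0.13 in WT cells on the log2 scale. Ctsk was dim at 0 h, above the nonspecific level in 2 of 3 WT arrays. Its difference ran from 0.81 to 1.46 in KO and from 0.76 to 1.76 in WT cells over 16 alternatives. In KO cells the Ctsk call was lost without KO replicate 1 (limma, adjusted p = 0.0727), and the Ctsh call with equal hybridisation controls (0.0628). The counts of lysosomal genes that rose were sensitive to the scaling: with equal medians, on the deposited values and with equal hybridisation controls, 3, 2 and 1 genes were higher in KO cells and 3, 2 and 2 in WT cells, where the median over all genes fell by 0.22, 0.26 and 0.22 in KO and by 0.11, 0.20 and 0.10 in WT cells. Without KO replicate 1 or 2, 2 or 4 genes passed in KO cells, and without WT replicate 1, 2 or 3, 6, 7 or 5 passed in WT cells.

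The LPS groups were also set against the cells at 0 h, as a description without a test and chosen after the data were seen. All LPS arrays lay below all 0 h arrays for 25 of the 35 genes in KO cells and for 22 in WT cells, where 27.7% and 22.3% of all genes did so. They lay above for 6 genes in KO and 7 in WT cells, where 22% and 19.9% of all genes did so. Ctsc, Ctsh, Ctsk, Npc2, Atp6v1h and Tfe3 were above in both genotypes and Ctsl in WT cells. Ctsh and Ctsk stood between the groups after LPS, below vehicle and above 0 h in their means. Npc1, Mcoln1 and Scarb2, which rose in regular medium, were below their 0 h arrays after LPS in both genotypes.

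Other genes of the lysosomal pathway came from lists drawn up for this comparison with earlier results known, and their counts differed by list. They stand beside the shares of all genes given above, 20.6% lower in KO and 18.6% in WT cells (32.5% and 29.8% of the genes above the nonspecific level). Of 31 further hydrolases and activators, 17 fell and 2 rose with LPS in KO cells, and 16 fell and 4 rose in WT cells. The deepest falls were those of Sgsh, a heparan sulfate sulfamidase (-2.74 in KO and -2.72 in WT cells), Galc, the galactosylceramidase (-1.92 and -2.41) and Manba, a beta-mannosidase (-1.85 and -1.81). Acp5, the tartrate-resistant acid phosphatase that marks osteoclasts and activated macrophages, rose by 2.28 in KO and 2.01 in WT cells. Of 32 further membrane proteins, 19 fell and 3 rose in KO cells, and 21 fell and 2 rose in WT cells. The sialic acid exporter Slc17a5 (-2.02 and -2.10) and the cation channel Tpcn1 (-1.97 and -1.86) fell, while Slc15a3, a transporter of bacterial peptides and histidine, rose by 3.25 in KO and 2.60 in WT cells and the chloride transporter Clcn7 by 1.71 and 1.56.

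Of 12 further V-ATPase subunits and accessory proteins, 5 fell and 1 rose in KO cells and 5 fell and 2 rose in WT cells. Atp6v0e2 fell most (-1.09 in KO and -1.17 in WT cells), and the stalk subunit Atp6v1e1 rose by 0.74 and 0.41. Of 16 genes of lysosomal nutrient sensing and of the family of Tfeb, 12 fell and 2 rose in KO cells and 9 fell and 2 rose in WT cells. Folliculin, Flcn, which activates the Rag GTPases, fell by 1.64 in KO and 1.52 in WT cells. Mitf and Tfec, the 2 relatives of Tfeb in this list, rose: Mitf by 0.55 in KO and 0.50 in WT cells, and Tfec by 2.46 and 1.16. Of 15 autophagy genes 11 fell and 2 rose in KO cells and 10 fell and 2 rose in WT cells, among them Uvrag (-1.64 and -1.44), Ulk1 (-1.13 and -1.11) and, rising, Atg9a, which delivers membrane to the autophagosome (0.88 and 0.90). Of 11 genes that sort lysosomal enzymes, 3 fell and 2 rose in KO cells and 4 fell and 2 rose in WT cells, with the sorting receptors in opposite directions: Sort1 -0.89 and -0.79, M6pr 0.35 and 0.41. Of 6 inhibitors of cathepsins, 2 fell in each genotype, Serpinb6a (-1.64 and -1.91) and cystatin C, Cst3 (-0.71 and -0.41), and Cst7 rose in KO cells (1.30). The counts of these lists also moved with the scaling: in KO cells 1 further V-ATPase gene, 4 to 5 autophagy genes and 5 to 6 nutrient-sensing genes were lower under the other 3 scalings.

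Where a gene had several probe sets, the others mostly moved the same way. The 35 genes had 60 probe sets, and 17 genes had more than 1. In 33 cases another probe set of a gene and the one that stood for it both passed, and the signs were opposite in 0 of them. Vehicle against 0 h was not part of this count. Sizes differed. For Ctsb the other 3 probe sets gave -1.13, -1.25 and -0.82 in KO and -0.73, -0.96 and -0.56 in WT cells between LPS and vehicle, all past the threshold over all probe sets, against -0.29 and -0.17 for the brightest. For Npc2 one of the others gave -0.998 in KO and -0.712 in WT cells, past the threshold, where the brightest gave no call. A second probe set of Atp6v0d2, above the nonspecific level in 14 of 18 arrays, gave -4.26 in KO and -2.61 in WT cells.

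Set beside the promoters, the 12 genes with an E-box gave 12 falls with LPS in KO cells (median log2 difference -0.73) and 11 in WT cells (-0.94), the exception in WT cells being Ctsl. Of the 17 genes with a window and no E-box, 12 fell in each genotype (medians -0.74 and -0.42), and the genes that rose, Ctsc and Tfe3, were among them. The 6 genes with no window at hand included Atp6v0d2 and Atp6v1h, with 5 falls in KO and 4 in WT cells. Whether the motif goes with the response was not tested.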

How the data were processed

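RNA was measured on 18 Affymetrix HT MG-430PM arrays, 3 for each of 6 groups. The deposited values were read as intensity per probe set on a linear scale. The submitters' processing notes name Partek, without a version, while its background correction and scaling were not stated. Array medians of the deposited intensity ran from 11.4 to 18.6, so the values were not on a common scale. Log2 of the deposited intensity was quantile-normalised between arrays. Of 45037 probe sets, 28898 had 1 gene symbol, 551 several and 15588 none; 104 control probe sets were left out. The probe set with the highest mean stood for each of 17097 genes. One model with a mean per group was fitted across all genes with limma 3.58.1 in R 4.3.3, and p-values were Benjamini-Hochberg adjusted over all genes within each of 8 comparisons, with a threshold of 0.05. The fit was tested on simulated data. A gene was above the nonspecific level where it exceeded the 95th percentile of 23 nonspecific probe sets. All genes are named; array values are given for those past the threshold between genotypes, the 2 largest LPS responses per role, those that rose with LPS, the transcription factors and the V-ATPase, and up to 3 genes per direction from the other lists. The genes and lists were chosen with earlier results of these data known. The number of arrays limits the precision. Alternatives were 3 other scalings, a filter on dim genes, the mean of probe sets, 32 units added before log2, each replicate left out, blocks, an intensity trend with array weights, and fits of the compared groups alone.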

Additional observations from a re-analysis of the deposited data

Results flagged for a closer look

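Tfec and Rragd, both from the list of lysosomal nutrient sensing and relatives of Tfeb, passed the test of the difference between the LPS responses of KO and WT cells, and for Rragd that test compares readings in the background. Tfec, a transcription factor of the family of Tfeb, averaged 10.32 in KO and 9.18 in WT cells after LPS, against 7.86 in KO and 8.02 in WT cells after vehicle (log2 intensity, n = 3 each). It rose by 2.46 in KO and 1.16 in WT cells, a difference of 1.30 ± 0.22 (SE, limma, adjusted p = 0.00685). The call was lost in 2 of 16 alternatives, without KO replicate 2 and without WT replicate 2, and the adjusted p ran from 0.000885 to 0.0801. Rragd, a Rag GTPase that recruits mTORC1 to the lysosome, averaged 3.80 in KO and 2.16 in WT cells after LPS, where no array exceeded the nonspecific level, against 5.35 in KO and 5.89 in WT cells after vehicle. Its log2 difference was -1.55 in KO and -3.73 in WT cells, a fitted difference of 2.19 ± 0.39 (SE, limma, adjusted p = 0.00897) between values of which both LPS means lie in the background. With the LPS values raised to the nonspecific level the means after LPS were 4.07 in KO and 4.15 in WT cells and the difference of responses was 0.46, so no genotype difference is read from Rragd. The call was lost in 4 of 16 alternatives: with the mean of probe sets, with 32 units added, and without KO replicate 1 or 2.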

How the results depend on the processing

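Quantile normalisation gave 31 lysosomal genes past the threshold for LPS in KO cells, and the count was 20 on the deposited values, 19 after equalising medians and 15 after equalising hybridisation controls. With equal medians in KO cells Atp6v0d1 (0.075), Atp6v1b2 (0.041) and Ctsb (0.044) changed sign, none past the threshold. For LPS in WT cells the split was 3 higher and 27 lower, and 1 higher and 28 lower on the deposited values. KO against WT after LPS gave 5, then 0 under each of these 3 scalings and with the 2 groups alone, and 9 with 32 units added. Vehicle against 0 h in KO cells gave 11, then 3 (2 higher), 5 (3 higher) and 1 under the 3 scalings, 17 without dim genes, 18 with 32 units added and 23 with an intensity trend and array weights. In WT cells it gave 11, then 2, 3 and 2, 17 with 32 units added and 21 with trend and weights. Trend and weights also gave 1 gene, where 0 had passed, for the difference of LPS responses and for KO against WT after vehicle. Leaving out 1 replicate gave 27 to 32 for LPS in KO cells, 26 to 29 in WT cells, 0 to 6 for KO against WT after LPS, and 2 to 12 and 5 to 12 for vehicle against 0 h in KO and WT cells. The cause of these shifts was not tested. With a replicate block the counts were 32, 28, 0, 4, 0, 0, 10 and 10 in the order LPS in KO, LPS in WT, their difference, KO against WT after LPS, after vehicle and at 0 h, and vehicle against 0 h in KO and WT. The block was the replicate number within a genotype for the treatment comparisons and their difference. For KO against WT it was the number across genotypes. Same-numbered arrays of a genotype deviated together little (r from -0.046 to 0.144, median 0.04 over 18 pairs), though they share a plate column as well as a number. Same-numbered arrays of different genotypes gave a median r of 0.002 over 27 pairs. Of 88 calls of single lysosomal genes, 51 held on the deposited values, 44 after equalising medians and 40 after equalising hybridisation controls. Dimness limits Rragd, Atp6v0d2 and Ctsk.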

Other observations

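Of 123 genes of the other lists, 6 were higher and 5 lower in KO than in WT cells after LPS (8.94%), beside 5.96% of all genes and 9.39% of those above the nonspecific level. Higher in KO cells were Tfec (1.14), Rragd (1.65, with no LPS array above the nonspecific level), the sialomucin Cd164 (0.98), the pump subunit Atp6v0a1 (0.96), and the autophagy genes Gabarapl1 (0.61) and Atg7 (0.53), on the log2 scale. Lower in KO cells were the thioesterase Ppt1 (-0.64), Plbd2 (-0.36), the Ragulator subunits Lamtor4 (-0.49) and Lamtor1 (-0.41), and Atg5 (-0.57). All passed an adjusted p of 0.05 in limma over all genes with quantile normalisation. These calls are listed as a description, and how each moved with the scaling is not given here. With only the 2 LPS groups fitted, 0.521% of all genes passed, against 5.96%. The 2 probe sets of Atp6v0d2 differed in this comparison: the brighter gave -0.56 and did not pass, and the second, above the nonspecific level in 14 of 18 arrays, gave -2.18 (adjusted p = 0.00353).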
